A study of Mus musculus with 20 samples.

Results

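DNA replication in a dividing cell begins when the Mcm2 to Mcm7 helicase is loaded onto origins by Cdc6 and Cdt1, is fired by the Dbf4-dependent kinase and cyclin-dependent kinases, and proceeds through a fork of polymerases, the sliding clamp Pcna and its loader, with enzymes that supply deoxynucleotides and copy methylation onto the new strand. Transcription of many of these genes is driven by E2F factors around entry into S phase, whereas genes of G2 and mitosis often carry CCAAT boxes and the cell cycle homology region (CHR) in their promoters. Most hepatocytes of the adult liver are quiescent, and they return to the cycle after injury or loss of tissue. The levels of 39 such genes were described in liver of Midn gene-trap mice. They were chosen by symbol, for replication licensing, the fork, nucleotide supply, maintenance methylation, cyclins, and checkpoints, and all 39 were listed both in the male table (56884 genes) and in the female table (18149 genes).

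The mice carried the conditional Midn XTR allele, in which an invertible gene-trap cassette with a GFP reporter sits in an intron of Midn, a nuclear adaptor of the proteasome. WT livers were labelled with the genotype Midn XTR and Midn-T livers with Midn TR, the form that Cre recombinase inverts. Cre was driven by Albumin regulatory sequence, which is active in hepatocytes. Whether the allele was also inverted in other liver cells was not tested. Whether the WT mice also carried the Cre transgene was not given in the sources used here. The mice were 11 to 14 weeks old and received no other treatment. RNA-seq was labelled as 12 libraries, 3 for each genotype and sex, and ATAC-seq as 8 libraries, 2 for each. The titles of 5 ATAC-seq samples contradict the library names and genotypes, by which the samples were grouped here.

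The level used for each gene was the authors' mean normalized count over the 6 libraries of 1 sex, WT and Midn-T together. A single library has no value of its own in these tables, so the levels carry no SD, no test was made, and WT and Midn-T were not compared. The intervals below cover counting error only, with 6 times the mean taken as the number of reads. In the male table the smallest means are worth 1 read of 1 library, and their steps gave relative depths (size factors) of the 6 libraries from 0.598 to 1.27, with the next lowest at 0.938. Which mouse the shallow library came from cannot be read from the table, and the female table, with a lowest mean of 6.61, allows no such reading. Means of the hepatocyte markers Alb, Ttr, Apoa1, Cps1 and Serpina1a stood at the top of both tables, with a median at the 99.9th percentile of 13621 protein-coding genes listed in both. Markers of macrophages (Clec4f, Adgre1, Cd68, Vsig4), endothelium (Stab2, Pecam1, Clec4g) and stellate cells (Des, Lrat, Dcn) were also measured, with median percentiles of 82.5, 79.4 and 71.8 in males. Those of lymphocytes (Cd3e, Cd79a, Ptprc, Jchain) and cholangiocytes (Krt19, Epcam, Sox9) lay lower, at 24.0 and 22.1. In bulk liver, fewer cells that express a gene and less RNA per cell cannot be told apart.

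Sequence comes first, with short promoter sequences that some of these genes hold and others lack. RefSeq promoters (GRCm38.p6, 250 bases before to 50 after a start) were found for 32 of the 39 genes. Ccne2, Ccnd1, Gins1, Gins2, Ccna2, Pole and Mcm4 had no entry. The E2F-type octamers TTTCCCGC, TTTCGCGC, TTTGCCGC and TTTGGCGC were searched on both strands, and 13 of the 32 genes (40.6%) held at least 1. The share was 2.60% of all 27025 genes with a promoter entry and 4.60% of the 10633 of them that are protein-coding and listed in both tables. The matches lay in 6 of 8 licensing genes (Mcm3, Mcm5, Mcm6, Mcm7, Cdc6, Cdt1), in 3 of 8 fork genes (Rfc3, Pold1, Lig1), in all 3 maintenance methylation genes and in Cdk1. A gene was counted when any of its promoter entries held a match. Mcm7, Lig1, Uhrf1 and Dnmt1 have more than 1 entry, and in each of them only 1 entry held a match. None of the 4 nucleotide supply genes and none of the 5 checkpoint and E2F genes held one. A match is a run of letters and not a shown binding site, and its absence from this window says nothing of E2F at that gene.

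The first set of promoters was chosen, after the matches were seen, to show the E2F-type octamers, which are in capitals. Dnmt1 copies DNA methylation after replication (chr9:20952574-20952873), Mcm6 is a subunit of the replicative helicase (chr1:128359656-128359955), and Rfc3 is a subunit of the clamp loader (chr5:151651159-151651458). All are on the minus strand and written 5′ to 3′ along the gene. Dnmt1 has 3 promoter entries, and the one shown is the only one that held an octamer. In Mcm6 a forward and a reverse octamer share letters and were counted as 1 site.
Dnmt1: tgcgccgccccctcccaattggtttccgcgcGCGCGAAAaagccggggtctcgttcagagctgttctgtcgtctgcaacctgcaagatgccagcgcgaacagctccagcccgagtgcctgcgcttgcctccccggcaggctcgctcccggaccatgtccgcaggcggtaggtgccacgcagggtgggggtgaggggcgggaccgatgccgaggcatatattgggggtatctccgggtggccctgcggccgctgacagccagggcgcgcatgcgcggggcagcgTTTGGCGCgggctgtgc
Mcm6: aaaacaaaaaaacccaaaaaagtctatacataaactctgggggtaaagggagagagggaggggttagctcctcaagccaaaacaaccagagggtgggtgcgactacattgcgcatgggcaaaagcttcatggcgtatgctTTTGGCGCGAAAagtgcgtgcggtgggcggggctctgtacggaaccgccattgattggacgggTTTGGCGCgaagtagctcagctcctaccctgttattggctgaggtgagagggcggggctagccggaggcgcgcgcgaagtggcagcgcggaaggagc
Rfc3: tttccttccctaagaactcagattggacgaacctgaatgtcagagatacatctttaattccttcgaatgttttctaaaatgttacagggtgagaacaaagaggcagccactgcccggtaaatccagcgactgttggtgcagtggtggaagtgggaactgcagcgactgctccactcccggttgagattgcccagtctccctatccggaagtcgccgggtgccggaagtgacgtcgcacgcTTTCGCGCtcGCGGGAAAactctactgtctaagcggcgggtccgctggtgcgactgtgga

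CCAAT on either strand was in 18 of the 32 genes (56.2%), against 41.1% of all genes with an entry and 43.0% of those listed in both tables. The CHR-type sequences TTTGAA and TTCGAA were in 10 (31.2%), against 21.7% and 16.8%. Both kinds were in the promoters of 8 genes (25.0%), against 9.65% and 8.24%, namely Mcm2, Mcm7, Rfc3, Top2a, Dnmt1, Cdk1, Mki67 and E2f8. CCAAT and CHR-type sequences are in capitals in the promoters of Top2a, the topoisomerase that untangles sister chromatids (chr11:99024140-99024439, minus strand), and Cdk1, the kinase of mitotic entry (chr10:69352863-69353162, minus strand). They are shown because Top2a held the most CCAAT sequences, 6, and Cdk1 is the mitotic kinase of the list.
Top2a: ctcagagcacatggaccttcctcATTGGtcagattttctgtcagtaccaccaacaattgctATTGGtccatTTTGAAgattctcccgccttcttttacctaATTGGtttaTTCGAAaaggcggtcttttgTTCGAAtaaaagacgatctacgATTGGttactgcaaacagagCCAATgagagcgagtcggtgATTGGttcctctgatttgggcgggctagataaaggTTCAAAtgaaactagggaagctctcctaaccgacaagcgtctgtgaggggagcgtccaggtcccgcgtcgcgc
Cdk1: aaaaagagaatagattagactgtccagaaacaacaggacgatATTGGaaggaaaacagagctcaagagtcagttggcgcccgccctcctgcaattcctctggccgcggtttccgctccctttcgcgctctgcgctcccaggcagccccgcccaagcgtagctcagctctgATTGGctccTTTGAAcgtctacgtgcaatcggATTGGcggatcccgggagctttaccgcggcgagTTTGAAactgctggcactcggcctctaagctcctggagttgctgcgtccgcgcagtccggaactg

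The matches had no common place. Places were counted from the start of each promoter entry, which for Dnmt1 is not the canonical start. E2F-type octamers began between 219 bases before (Dnmt1) and 39 bases after the start (Pold1). The CHR-type sequence of Cdk1 nearest the start began 15 bases before it. The GC content of the 40 promoters of the 32 genes had a median of 58.0% and ranged from 45.3% to 77.3%. The median was 60.3% for protein-coding genes listed in both tables and 52.7% for all promoters. The highest GC content, 77.3% in E2f1, went with 48 CpG dinucleotides and no E2F-type octamer.

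**Figure D1:**
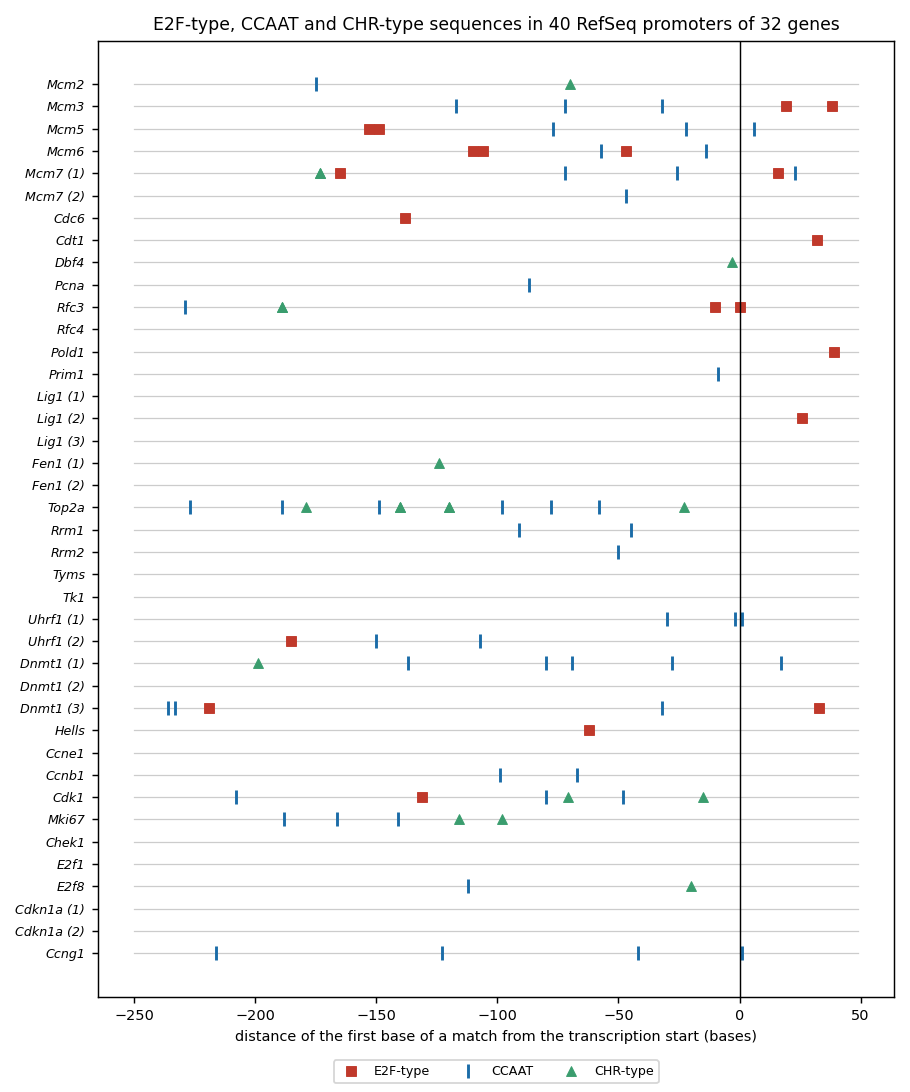
Positions of E2F-type octamers (red squares), CCAAT (blue bars) and CHR-type sequences (green triangles) in 40 RefSeq promoters of 32 genes; the x axis is the distance in bases of the first base of a match from the transcription start. The E2F-type squares stand mostly in the rows of licensing genes and of Uhrf1, Dnmt1 and Hells, and Top2a has the longest row of CCAAT bars.

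The 39 genes made up a small part of the liver RNA measured. Together they held 0.0271% of the summed mean over protein-coding genes in males and 0.0330% in females, and 0.0438% and 0.0537% when the 100 genes of largest mean were left out of the sum. Their means summed to 7833 normalized counts in males and 9610 in females, of which Ccnd1 alone held 1247 and 2869. Most of the difference between these sums is that of Ccnd1. Per kb of exon, their median level was 23.1 normalized counts in males and 18.5 in females, against 70.6 and 71.5 for the protein-coding genes listed in both tables. Above that median stood 5 genes in males and 4 in females. The male count was 25 when the median was taken over every protein-coding gene of the male table, which also lists genes at 0, and the female count was then 4. The same genes led in both sexes, in the order Ccnd1, Ccng1, Pcna, Tk1 and Dnmt1, and Dnmt1 lay at the 50.4th percentile in males and the 48.7th in females. With the longest transcript as the length, Ccnd1 would still lead, but the order after it would not be the same in both sexes. The lowest in both was Cdc6, at 2.11 per kb in males and 2.04 in females. Ccnb1 at 2.30 and Gins2 at 3.76 came next in males, and Chek1 at 2.08, Ccnb1 at 2.11 and Gins2 at 3.88 in females. From the lowest to the highest gene the range was 124-fold in males and 294-fold in females. The order of the 39 levels was alike in both tables (Spearman's rho = 0.896 across genes, given as a description, since the genes are not replicates).

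**Figure D2:**
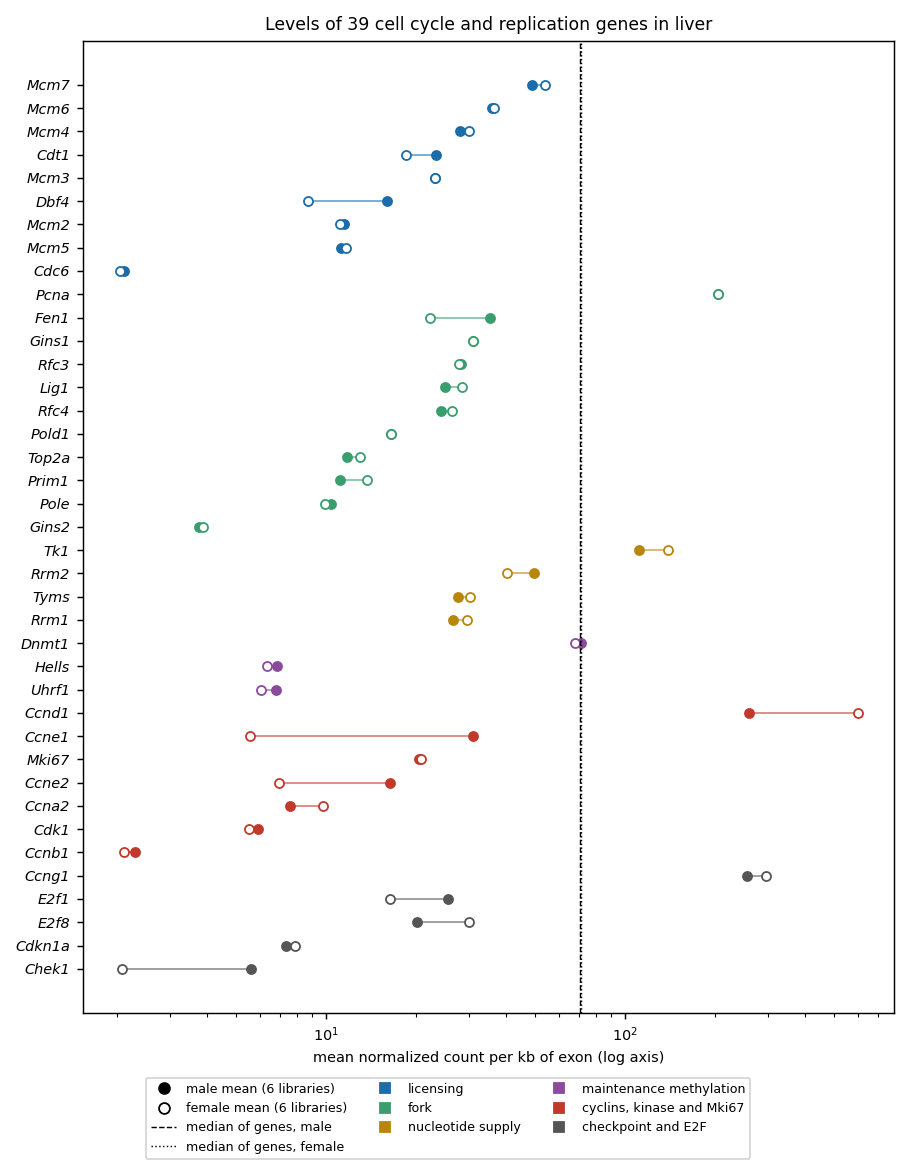
Authors' mean normalized count per kb of exon (log axis) for the 39 genes, grouped by role, in 6 male libraries (filled) and 6 female libraries (open), with the median of 13621 protein-coding genes as vertical lines. Most points lie left of the lines, Ccnd1, Ccng1, Pcna and Tk1 lie right of them, and the widest gaps between the sexes are those of Ccne1, Chek1, Ccne2 and Ccnd1.

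Licensing genes were all below the median of protein-coding genes. The helicase subunits Mcm2 to Mcm7, which work as a ring with 1 copy of each, ranged from 11.2 (Mcm5) to 48.9 per kb (Mcm7) in males, a 4.35-fold span, and from 11.1 (Mcm2) to 53.9 (Mcm7) in females, a 4.84-fold span. Their means were close between the sexes. Mcm2 had 91.3 normalized counts in males and 88.3 in females, Mcm3 145 and 145, and Mcm4 150 and 161. Mcm5 had 76.8 and 79.8, Mcm6 196 and 198, and Mcm7 274 and 303. Every female over male ratio of the helicase subunits lay between 0.961 and 1.10. The miRNA genes Mir25, Mir93 and Mir106b, which lie inside Mcm7 on the same strand, were listed at 0 in males. Of the loaders, Cdc6 lay below every helicase subunit per kb, and Cdt1, at 23.3 in males and 18.5 in females, lay within their range. Cdc6, the ATPase that recruits the helicase, had 11.6 normalized counts in males and 11.2 in females. Cdt1, its partner, had 75.5 and 60.0, a ratio of 0.789 (95% counting interval 0.685 to 0.909). Dbf4, the activating subunit of the kinase that fires origins, had 161 and 87.8, and is described with the differences between the tables.

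Among the 11 fork genes of the list, Pcna stood apart. Pcna (ENSMUSG00000027342, GRCm39 chromosome 2, 132091082 to 132095234) had 490 normalized counts in males (counting interval 472 to 508) and 492 in females (475 to 510), or 204 and 205 per kb. The next of these 11 genes in males, the flap endonuclease Fen1, stood at 35.3 per kb. The clamp loader subunits Rfc3 and Rfc4 stood at 28.2 and 24.3 per kb in males and 27.9 and 26.4 in females. Over the whole loader, with Rfc1, Rfc2 and Rfc5, the span was 6.63-fold in males and 6.31-fold in females, with Rfc1 highest. GINS, which joins the helicase at the fork, spanned 16.3-fold in males and 12.9-fold in females, from Gins2 at 3.76 and 3.88 per kb to Gins4 at 61.2 and 50.2. Gins1 stood between them, at 30.9 and 31.0. Of the catalytic subunits, Pold1 of the lagging strand polymerase stood at 16.5 per kb in both sexes, and Pole of the leading strand polymerase at 10.4 in males and 9.91 in females. Pold1 was the lowest of 4 Pol delta subunits in both tables, and Pole2 the lowest of 4 Pol epsilon subunits, with a span of 23.2-fold in males up to Pole3. Prim1, the catalytic primase subunit, had 63.4 normalized counts in males and 77.8 in females, a ratio of 1.22 (1.06 to 1.40). Lig1, which seals Okazaki fragments, had 113 and 129, and Top2a 107 and 118. In both sexes the highest subunit of the helicase, of GINS, of the clamp loader and of both polymerases stood more than 4-fold above the lowest, on a scale per kb of the union of annotated exons, which is not the length of the transcripts made in liver.

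Nucleotide supply had the highest median of the groups, 38.6 per kb in males and 35.3 in females. Tk1, the thymidine kinase of the salvage route, led it with 744 normalized counts in males (722 to 766) and 932 in females (908 to 957). The ribonucleotide reductase subunits Rrm1 and Rrm2 had 313 and 164 in males and 349 and 134 in females. Rrm2 is the subunit whose protein is restricted to S phase. Per kb of the exon union, Rrm2 stood 1.86-fold above Rrm1 in males and 1.36-fold above it in females. The exon unions are 3320 bases for Rrm2 and 11762 for Rrm1, and the longest transcripts 2622 and 5475. With the longest transcripts, Rrm1 would stand above Rrm2 in females, so their order depends on the length used. Tyms, the thymidylate synthase, had 180 and 196 normalized counts.

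In maintenance methylation, Dnmt1 stood far above its partners. Dnmt1 (ENSMUSG00000004099, GRCm39 chromosome 9, 20817945 to 20871184, minus strand) had 608 normalized counts in males (588 to 628) and 579 in females (559 to 598), or 71.5 and 68.1 per kb. Uhrf1, which brings Dnmt1 to hemimethylated sites, had 35.9 and 32.1 normalized counts. Hells, a remodeller needed for methylation of repeats, had 94.3 and 87.6. Per kb both stood below 7, so that the highest of the 3 genes was 10.5-fold above the lowest in males and 11.2-fold in females.

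Among cyclins, Ccnd1 was the most abundant, and the mitotic genes were near the bottom. Ccnd1 (ENSMUSG00000070348, GRCm39 chromosome 7, 144483668 to 144493662), which carries growth signals into G1, stood at 261 per kb in males and 600 in females. It was the highest of the D-type cyclins in both tables, 3.37-fold above Ccnd2 in males and 5.95-fold above Ccnd3 in females, the lowest of each. Ccna2, the S phase cyclin, had 31.0 normalized counts in males (26.7 to 35.8) and 40.0 in females (35.1 to 45.4). Ccnb1, the mitotic cyclin, had 9.87 (7.49 to 12.7) and 9.05 (6.76 to 11.7). Its partner Cdk1 had 34.6 and 32.1. Mki67, which marks cycling cells of any type, had 210 in males and 213 in females. Per kb this was 20.4 and 20.7. The low levels of Ccnb1, Cdk1, Ccna2 and Mki67 were thus measured in both sexes, and which cells they come from was not tested.

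In the checkpoint and E2F group, Ccng1 was high and the others low. Ccng1, a target of p53, had 1124 normalized counts in males and 1304 in females. Cdkn1a, the p53-induced inhibitor of cyclin-dependent kinases, had 44.4 and 47.7. Per kb the p53 targets stood at 256 and 7.34 in males and at 296 and 7.89 in females. E2f1, an activator of S phase genes, had 88.7 and 56.8 normalized counts. E2f8, an E2F repressor that is active in polyploid hepatocytes, had 113 and 168. Chek1, the kinase of the replication checkpoint, had 59.5 and 22.1.

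The male and female means were then set side by side. Each was scaled to its sum over protein-coding genes of both tables (a factor of 0.993), and genes with a mean of at least 10 in both were kept, which left 38 of the 39 genes, all but Ccnb1. Since the sexes were processed in separate tables with 1 pooled value each, sex cannot be told apart from any other difference between these 2 sets of libraries, and no test was made. The ratio had a median of 1.01 over 12962 protein-coding genes, with 90% of them between 0.712 and 1.56. Of the 38 genes, 31 lay within 1.5-fold either way. Just 1 was higher in females past 1.5-fold (2.63%), where 6.15% of all genes were. Lower in females past 1.5-fold were 6 (15.8%), where 3.61% of all genes were.

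By role, the 6 were 1 of 9 licensing genes, 1 of 11 fork genes, 2 of 6 cyclin and kinase genes and 2 of 5 checkpoint and E2F genes. Ccne1 (ENSMUSG00000002068, GRCm39 chromosome 7, 37797404 to 37808264), the cyclin that drives entry into S phase, had 113 normalized counts in males (104 to 121) and 20.2 in females (16.7 to 24.1). Its ratio was 0.178 (0.146 to 0.216), or 5.62-fold higher in males, at the 0.224th percentile of all genes. Chek1 (chromosome 9, 36614487 to 36638361) had a ratio of 0.369 (0.301 to 0.453). The other E-type cyclin Ccne2 (chromosome 4, 11190303 to 11204947) had 92.0 in males and 39.2 in females, a ratio of 0.424 (0.361 to 0.494). Dbf4 (chromosome 5, 8445717 to 8472796) had a ratio of 0.542 (0.486 to 0.603). The counting intervals of these 4 genes lay wholly past 1.5-fold. Those of Fen1 (chromosome 19, 10176479 to 10182097), 0.557 to 0.711 around 0.629, and of E2f1 (chromosome 2, 154401326 to 154411812), 0.554 to 0.731 around 0.636, included the 1.5-fold limit. Because a mean does not show its libraries, 1 or 2 male livers with high Ccne1 and a shift in all 6 would look the same here.

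Of the 6 genes, 5 had means that averaged under 100. That average includes the female mean, which is low in the 6 genes by the way they were picked. In males alone, Ccne1 had 113 normalized counts and Fen1 114. Among genes whose 2 means averaged under 100, 4.84% of all 2647 genes were lower in females past 1.5-fold, and 5 of 19 of the genes described here. At an average of at least 100, a choice made after the values were seen, it was 3.30% of 10315 genes and 1 of 19, Dbf4. In the order of levels per kb, Ccne1 stood 10th of 39 in males and 34th in females, and Fen1 9th and 18th. Per kb of the exon union, the order of the E-type cyclins turned. Ccne1 stood at 31.0 and Ccne2 at 16.4 in males, but at 5.56 and 6.98 in females. This order depends on the length used. The exon unions of Ccne1 and Ccne2 are 3626 and 5621 bases, and their longest transcripts 2078 and 5207. With the longest transcripts, Ccne1 would stay above Ccne2 in females.

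In the other direction, Ccnd1 had 1247 normalized counts in males (1219 to 1276) and 2869 in females (2826 to 2912), a ratio of 2.29 (2.22 to 2.35) at the 98.9th percentile of all genes. E2f8 lay just inside the limit, with a ratio of 1.48 (1.34 to 1.64), and moved from 22nd to 11th in the order of levels. On the opposite strand E2f8 is overlapped by the lncRNA gene Gm2788, which had 544 normalized counts in males and 1537 in females. Reads were counted by strand, and a part of Gm2788 reads in the E2f8 value was not tested. Next came Ccna2 at 1.28 (1.05 to 1.56) and Tk1 at 1.24 (1.20 to 1.29). On the lower side, the genes nearest to the limit among those within it were Cdt1 at 0.789 and Rrm2 at 0.808 (0.735 to 0.888). Many other genes had ratios near 1. Pcna had a ratio of 0.998 (0.948 to 1.05), Mki67 1.01 (0.931 to 1.09), Pold1 0.993 (0.883 to 1.11), Gins1 0.996 (0.860 to 1.15) and Cdk1 0.922 (0.754 to 1.13). No equality is shown by such intervals, which leave out the variation between mice.

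**Figure D3:**
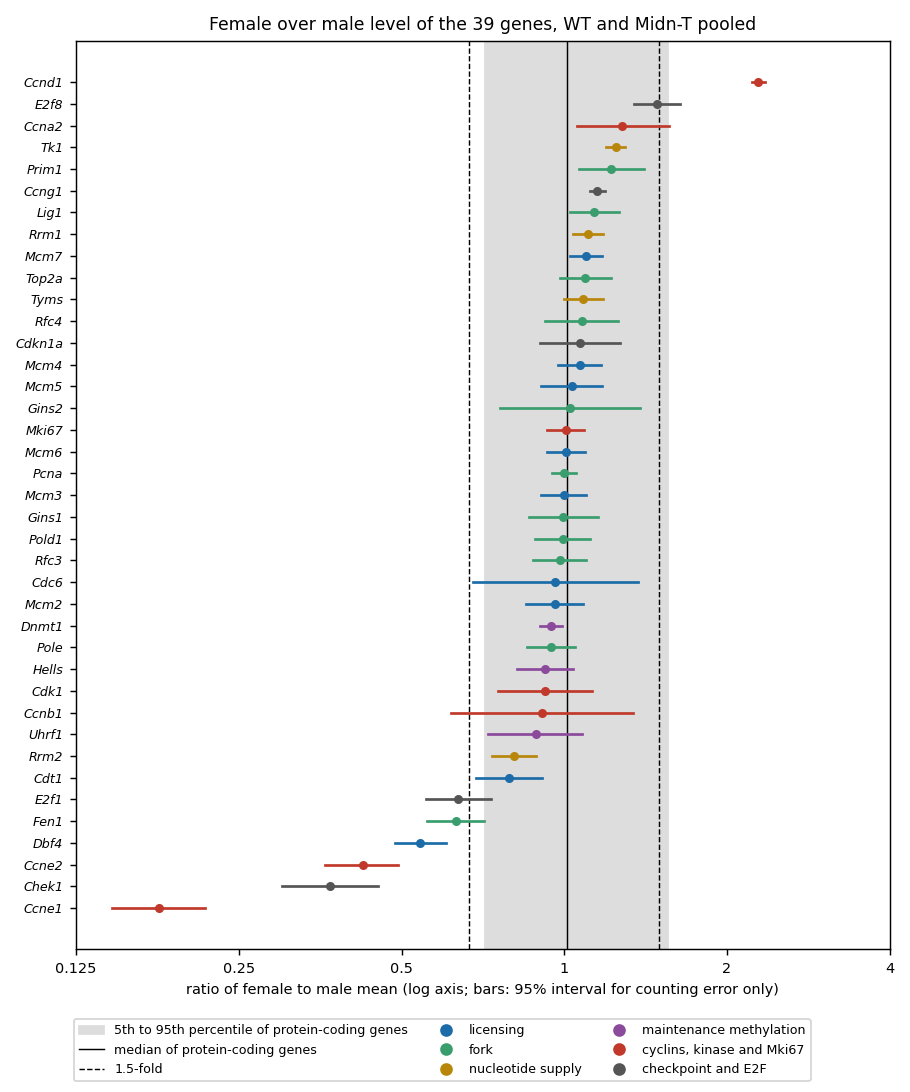
Ratio of the female to the male mean (log axis) for the 39 genes, WT and Midn-T pooled, ordered by ratio; horizontal bars are 95% intervals for counting error only, the grey band spans 90% of 12962 protein-coding genes, the solid line is their median and the dashed lines are 1.5-fold. Most genes lie in the grey band, with Ccnd1 to its right and E2f1, Fen1, Dbf4, Ccne2, Chek1 and Ccne1 to its left.

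The E2F-type octamers were set beside these ratios, after both were seen. None of the 5 genes of the 6 with a promoter entry (Ccne1, Chek1, Dbf4, Fen1, E2f1) held one in this window. Most genes hold none, since the share was 4.60% of the protein-coding genes with an entry that are listed for both sexes. The lack of one in 5 genes therefore does not set them apart from protein-coding genes at large. Among the 32 genes described here with an entry, 13 (40.6%) held one, and whether the 5 differ from the rest of these was not tested. Other forms of E2F site were not searched. The 13 genes with an octamer had ratios between 0.789 and 1.14 (median 0.981), and the 18 without one had ratios between 0.178 and 1.48 (median 1.04). The promoters of Ccne1 (chr7:38107441-38107740) and Dbf4 (chr5:8422667-8422966), both on the minus strand of GRCm38.p6, are shown as examples, with no capitals because no octamer was found.
Ccne1: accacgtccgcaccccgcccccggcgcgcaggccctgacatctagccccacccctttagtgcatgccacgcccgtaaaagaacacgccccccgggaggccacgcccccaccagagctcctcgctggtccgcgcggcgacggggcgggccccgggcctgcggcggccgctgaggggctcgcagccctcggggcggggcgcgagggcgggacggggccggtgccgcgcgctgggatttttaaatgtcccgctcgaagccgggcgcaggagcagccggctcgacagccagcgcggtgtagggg
Dbf4: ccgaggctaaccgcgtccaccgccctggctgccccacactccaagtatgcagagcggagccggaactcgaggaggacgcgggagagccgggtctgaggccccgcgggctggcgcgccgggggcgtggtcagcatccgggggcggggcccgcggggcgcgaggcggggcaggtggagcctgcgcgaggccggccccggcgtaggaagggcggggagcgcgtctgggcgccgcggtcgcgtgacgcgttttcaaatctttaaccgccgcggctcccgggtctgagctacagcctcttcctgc

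The start of Dbf4 lies 13 bases from that of Slc25a40, a mitochondrial carrier gene on the opposite strand. Slc25a40 had 213 normalized counts in males and 239 in females, a ratio of 1.11, while that of Dbf4 was 0.542. Mcm4 and Prkdc lie 489 bases apart in the same way, and Pole and Pxmp2 117 bases apart. Such a pair within 1000 bases was found for 3 of the 39 genes (7.69%), for 5.05% of all protein-coding genes and for 7.11% of those listed in both tables. Prkdc, which repairs double-strand breaks, had a ratio of 0.958 and Mcm4 1.07. On the same strand, 7 of the 39 genes are overlapped by small RNA genes, pseudogenes or unclassified loci, none with a mean above 4.77. On the opposite strand 23 of the 39 genes are overlapped, among them Ccne1, Ccne2, Fen1 and Chek1. The share of all genes with such overlaps was not counted. 1600014C10Rik over Ccne1 had 4207 normalized counts in males and 4384 in females, and Ints8 over Ccne2 had 982 and 964. Over Fen1, Tmem258 had 446 and 379 and Gm10143 had 18.6 and 9.70. A part of their reads in the values of these genes was not tested.

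Of 82 other cell cycle and replication genes, 77 had a mean of at least 10 in both tables. Past 1.5-fold, 3 were lower in females (3.90%) and 2 were higher (2.60%), where 3.61% and 6.15% of all genes were. The lower ones were Mcm10, a replication initiation factor, with 2766 normalized counts in males and 1038 in females (ratio 0.373, 0.362 to 0.384), Wee1, the kinase that holds back Cdk1, with 965 and 509 (0.524, 0.501 to 0.547), and E2f3 with 449 and 285 (0.630, 0.593 to 0.670). The higher ones were Cdkn1c, an inhibitor of cyclin-dependent kinases, with 33.3 and 68.9 (2.06, 1.73 to 2.44), and Tet2, a methylcytosine dioxygenase, with 1214 and 2024 (1.66, 1.61 to 1.70). Wee1, E2f3, Cdkn1c and Tet2 were named after their values were seen. Mcm10 was the highest of the 82 genes per kb in males, at 274, and Btg2 at 259, Top1 at 251 and Cdk4 at 214 were also among the highest. In females Top1 at 230, Btg2 at 214, Top2b at 206 and Cdk4 at 192 were among the highest. At the low end in males were Cdc25c, Orc1, Cdkn2a and Cdc7, from 0.415 to 2.13 per kb, and Ccna1 was listed at 0. Of these, Cdc7, the kinase that Dbf4 activates, was the only one listed in females, at 2.34 per kb. The low end in females also held Bub1, Foxm1, Mybl2 and Aurkb, genes of mitosis and its transcription, from 2.21 to 3.53 per kb. In males 25 and in females 26 of these genes stood above the median of protein-coding genes.

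Markers of other cells differed between the tables as well. Krt19 of cholangiocytes was higher in females (19.7 against 38.1 normalized counts, ratio 1.92), while Epcam had a ratio of 1.43, Sox9 one of 0.848 and the sum of these 3 markers one of 0.991. Alas2, the haem synthesis enzyme of red cell precursors, was lower (2685 against 569, ratio 0.210), while the haemoglobin genes Hbb-bs and Hba-a1 had ratios of 1.36 and 1.25. The other markers stayed within 1.5-fold. Stellate markers ranged from 1.30 to 1.41, endothelial ones from 1.14 to 1.21, macrophage ones from 0.995 to 1.29, lymphocyte ones from 0.784 to 1.13 and hepatocyte ones from 0.729 to 1.34. Summed, the lymphocyte markers had 1141 normalized counts in males and 1189 in females and the erythroid ones 6066 and 5108. Their part in the levels above was not tested. Midn, whose trapped transcript keeps its first exons, had 1672 and 1357 normalized counts over both genotypes, which does not check the trap.

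ATAC-seq, which cuts and tags open chromatin, left 217 listed peaks for females and 179 for males. The lists hold the windows of 500 bases that the authors selected in comparing Midn-T with WT, at an adjusted threshold for females and an unadjusted one for males, so they are not all open regions. Only positions were used here. The paper reports that no male peak passed the adjusted threshold. In each list 1 peak had a start of the 39 genes as its nearest protein-coding start, out of the starts of 21770 protein-coding genes. How many listed peaks any other 39 genes would have was not tested, so the count is not a result about these genes. In the male list it was chr9:20863811-20864310 (GRCm39), whose middle lies 215 bases past the start of the canonical Dnmt1 transcript, in exon 1 of 39. Its GC content was 68.0%, with 48 CpG dinucleotides, 3 E2F-type octamers and 2 CCAAT sequences. The Dnmt1 promoter printed above matched this region at chr9:20863870-20864169 of GRCm39, and all of its 300 bases, with both E2F-type octamers, lay in the peak. That entry has its start downstream of the canonical one. The entry at the canonical start, chr9:20864226-20864525, had 85 bases in the peak and no E2F-type octamer. In the female list it was chr11:40845434-40845933, 199545 bases upstream of Ccng1 and outside the gene. When starts of every annotated gene were used, that peak was nearer to Gm24446, at 80267 bases, so its link to Ccng1 rests on position alone. No peak of either list had any other of the 39 genes as its nearest start.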

How the data were processed

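RNA-seq libraries were made from rRNA-depleted liver RNA with strand kept. Alignment by the authors was to GRCm39 with STAR 2.7 (submitters' notes). The authors counted uniquely mapped reads per Ensembl gene with HTSeq, on the reverse strand, and the authors ran DESeq2 for each sex on its own. The signal used here is the authors' deposited mean of counts divided by DESeq2 size factors, over 6 libraries. The deposited columns of log2 fold change, error, statistic, p-value and adjusted p-value, and the direction of peaks, hold the authors' comparison of WT and Midn-T and were not used. For ATAC-seq the authors merged MACS2 peaks, set them to 500 bases and compared counts with edgeR.

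Means were divided by the union of exons in GENCODE M39 (GRCm39). Intervals are exact 95% Poisson intervals, or binomial (Clopper-Pearson) ones for ratios. Spearman's rho, ratios and motif counts were computed with Python 3.11.15, pandas 2.3.3 and scipy 1.17.1. The code for the motif search and the ratios was run on simulated data. Those data held counting error only, with no variation between mice, and planted changes larger than 1.5-fold. They therefore do not show how the ratios hold between livers. Peak positions were read as starting from 0 and are printed from 1. The 39 genes, the other lists and the alternatives were chosen with earlier results of these data known. All 39 genes and every marker were named, with the 5 highest and 5 lowest other pathway genes per kb in each table, except 1 that is not reported here.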

Additional observations from a re-analysis of the deposited data

How the results depend on the processing

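No value for a single library was used, so no replicate could be left out and the spread between mice is unknown. No paired analysis was possible because each table gives 1 mean over 6 libraries. All 39 genes were also listed when matched by identifier. The summed level of the 39 genes was 0.0259% in males and 0.0312% in females over every row of the tables, and 0.0438% and 0.0537% without the 100 genes of largest mean. In males, 25 genes stood above the median when it was taken over every protein-coding gene of the table, which also lists genes at 0, against 5. The longest transcript or a filter at 10 left 4 in each sex. The Spearman correlation of the levels in males and females was 0.917 without division by length and 0.912 with the longest transcript. Scaling by the median ratio or not at all left 1 gene higher and 6 lower in females. With means of at least 100 in both tables, 0 of the 18 genes left were lower, a filter that removes genes low in 1 sex, and with an average of at least 100, chosen after seeing the data, 1 of 19 was. The E2F-type count was 10 of 32 with TTTCCCGC and TTTGGCGC only, and 12 from 150 bases before to 50 after the start. The peak near Ccng1 was lost, leaving 0 in the female list, with the starts of all genes and within 10000 bases, while that of Dnmt1 stayed. A planned search of proteins for the Pcna-binding sequence was not run, for want of a protein table.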
